A study of Mus musculus with 24 samples.

Results

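Untreated eosinophils labelled Csf2ra-/- were compared with untreated eosinophils labelled Irf5-/-, as 3 libraries against 3 of the 24 in the series, to see which baseline differences are particular to one knockout line. The 6 libraries were chosen by genotype and treatment in their labels, and all genes were read from raw counts. The source was C57BL/6 bone marrow, cultured at first (day 0 to day 4) in stem cell factor and FLT3 ligand, both at 100 ng/ml, and then in interleukin-5 (IL-5) at 10 ng/ml. Dead cells were taken out on day 13 before a last night in IL-5 at 10 ng/ml. Untreated therefore means without granulocyte-macrophage colony-stimulating factor (GM-CSF) but with IL-5, in all 3 groups used for this comparison: Csf2ra-/-, Irf5-/- and wild type (WT), 3 libraries each. The same pair of genotypes kept overnight with GM-CSF at 20 ng/ml (6 further libraries) served for a second reading of the contrast. That reading also holds any response to GM-CSF that differs between the genotypes, so it is not a plain repeat. Unless stated otherwise, the spread behind the p-values was estimated in a single fit of all 24 libraries, in 8 groups. The groups not yet named were WT with GM-CSF, WT with interleukin-10 (IL-10) and WT with both. The labels mention cell triplicates and do not say whether libraries came from separate animals or cultures, so p-values measure only the spread between these libraries, which may be technical. The sources used here name neither the alleles behind both knockout labels nor the age of the mice.

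Eosinophils are granulocytes of the bone marrow that need IL-5 to mature and survive. GM-CSF, IL-3 and IL-5 signal through a shared beta chain (Csf2rb in the mouse, with the close copy Csf2rb2), each paired with its own ligand-binding alpha chain, which is Csf2ra for GM-CSF and Il5ra for IL-5. IRF5 is a transcription factor that Toll-like receptors activate through MyD88 and that drives inflammatory cytokine genes in macrophages and dendritic cells.

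Total counts in the 6 libraries ran from 6222979 (Irf5-labelled replicate 1) to 17149887, and between 12910 and 14558 genes had a count. Levels are given in CPM, the count scaled to library size with edgeR's trimmed-mean factors, and a gene was called when its adjusted p (edgeR's quasi-likelihood test, Benjamini-Hochberg over 11885 genes) was under 0.05. The 3 Csf2ra-/- libraries lay further from one another than those of the other groups: the median gene differed from the mean of the other 2 libraries by 0.23 to 0.29 on the log2 scale in Csf2ra-/-, against 0.11 to 0.14 in the Irf5-labelled and WT libraries. Csf2ra-/- replicate 2 was the farthest, with 214 of 9397 genes at least 2-fold away, and its deviation across 9372 genes went with transcript length (Spearman's rho 0.64, described across genes of 1 library) and with lower GC content (rho -0.31). Other libraries of the comparison deviated with length as well, from rho -0.59 in Irf5-labelled replicate 2 and -0.53 in Csf2ra-/- replicate 1 to 0.39 in Irf5-labelled replicate 3, and Irf5-labelled replicate 1 deviated with GC content (rho -0.41). The contrast itself had a rho of -0.25 with length and -0.03 with GC content across 11871 genes; the part of these in the results was not tested. Genes of the Y chromosome (4 of them, summed) gave 161.8, 180.5 and 164.7 CPM in Csf2ra-/-, 178.9, 12.2 and 39.24 CPM in the Irf5-labelled libraries and 175.4, 56.9 and 50.72 CPM in WT, so this level moved with the groups compared.

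The targeted genes were read first. Irf5 (ENSMUSG00000029771, GRCm38 chromosome 6, 29526625 to 29541871) stood at 37.7, 28.3 and 37.1 CPM in the Csf2ra-/- libraries, at 1577, 1891 and 1568 CPM in the libraries labelled Irf5-/-, and at 47.6, 55.4 and 59.6 CPM in WT. The libraries labelled Irf5-/- therefore held 48.8 times the mean level of Csf2ra-/-, against their label, and the label is used below only as a name. The log2 difference was -5.61 ± 0.19 (SE; edgeR adjusted p = 6.58e-15), and it was the largest among genes with a mean of at least 5 CPM. Csf2ra (ENSMUSG00000059326, chromosome 19, 61223957 to 61228429) stood at 29.9, 28.5 and 38.4 CPM in Csf2ra-/-, at 68.3, 83.5 and 59.1 CPM in the Irf5-labelled libraries, and at 53.4, 56.5 and 59.2 CPM in WT. Its groups did not overlap, and it was lower by -1.12 ± 0.14 (edgeR adjusted p = 0.000155), so transcript reads were reduced and not absent. A gene-level count cannot tell a deleted exon from an intact one.

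**Figure D1:**
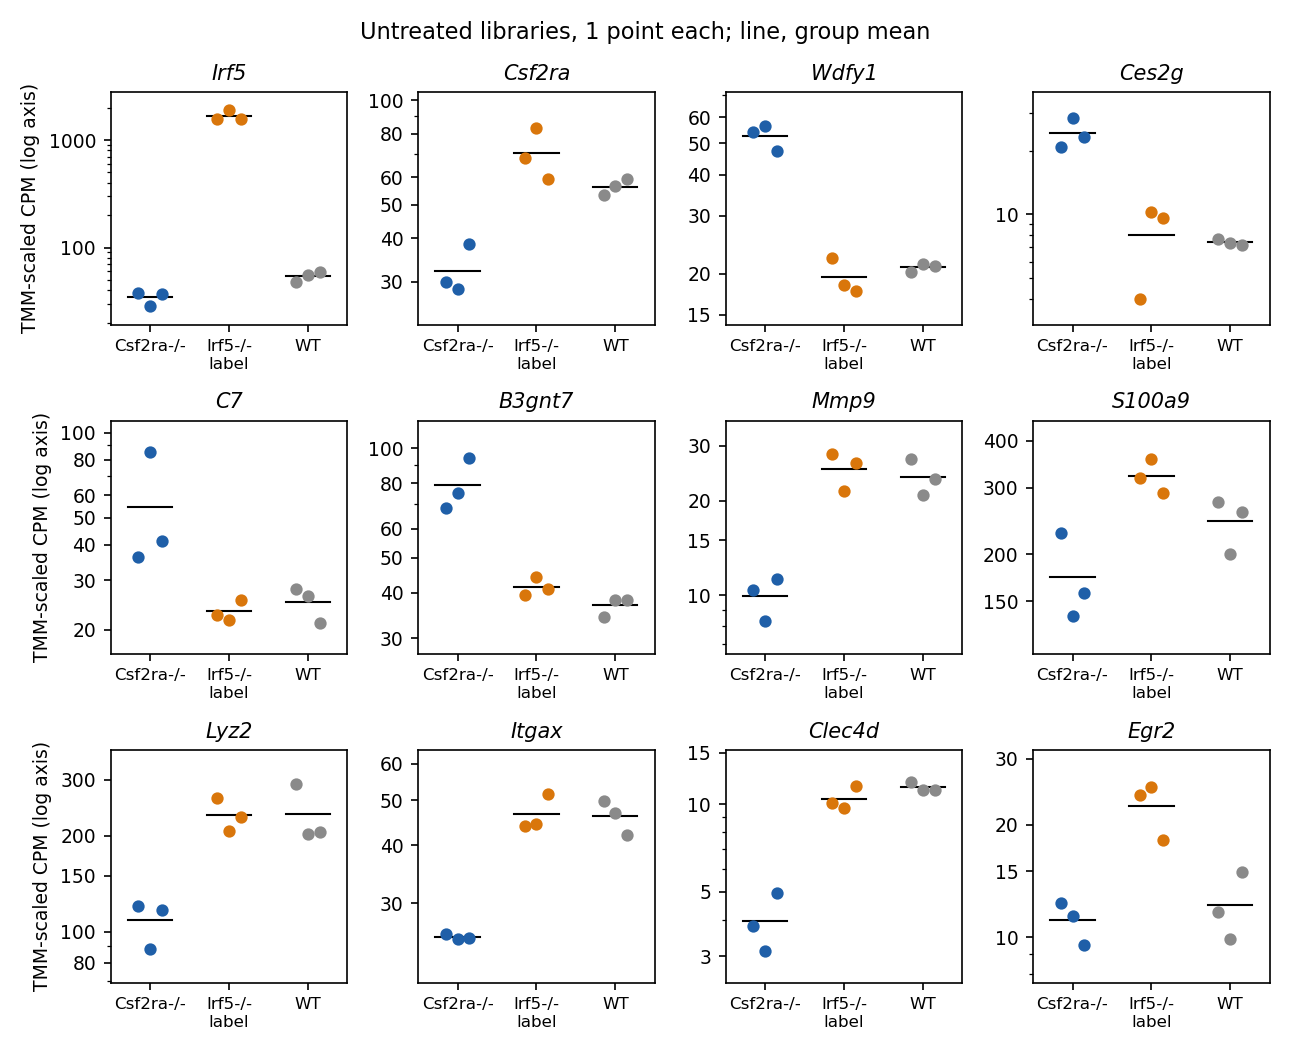
Level of 12 genes (TMM-scaled CPM, log axis, ranges differing between panels) in each untreated library of Csf2ra-/- (blue), the libraries labelled Irf5-/- (orange) and WT (grey), with a line at each group's mean of 3. Irf5 is high in the orange points alone, while in most other panels the blue points lie apart from both other groups. In the panels of Egr2 and S100a9 the orange points lie apart.

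Of 11885 genes tested, 93 were called (0.782%), 30 higher (0.252%) and 63 lower (0.530%) in Csf2ra-/-. Of the called genes, 41 were lower and 15 higher by 2-fold or more. In 91 of the 93 the 3 libraries of one group lay wholly outside the range of the other; over all genes tested, 1381 (11.6%) had groups that did not overlap, 673 (5.66%) of them with Csf2ra-/- below. The median over all genes tested was 0.03 on the log2 scale, and 1582 of the 11885 had an unadjusted p under 0.05. The count rested on the libraries and on the spread estimate: it was 225 by DESeq2 and 60 by limma-voom, 9 when the spread was estimated from these 6 libraries alone, 658 without Csf2ra-/- replicate 2 (334 higher and 324 lower, 85 of the 93 among them), 58 without Csf2ra-/- replicate 1, 59 without Irf5-labelled replicate 2, and 25 without Irf5-labelled replicate 3. Without Csf2ra-/- replicate 3 the 74 calls split into 35 higher and 39 lower, so the excess of lower genes was not kept under each left-out library. A covariate for the Y-linked sum left 63, of which 52 were among the 93. In the 4 libraries of the comparison with a high Y-linked level, only 1 of them Irf5-labelled, 1 gene (Irf5) was called. None of the 93 changed sign under an alternative in which it was tested (7 of them, such as Tagln and Postn, were not tested under 1 to 3 alternatives), and 23 kept their call whichever single library was left out.

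**Figure D2:**
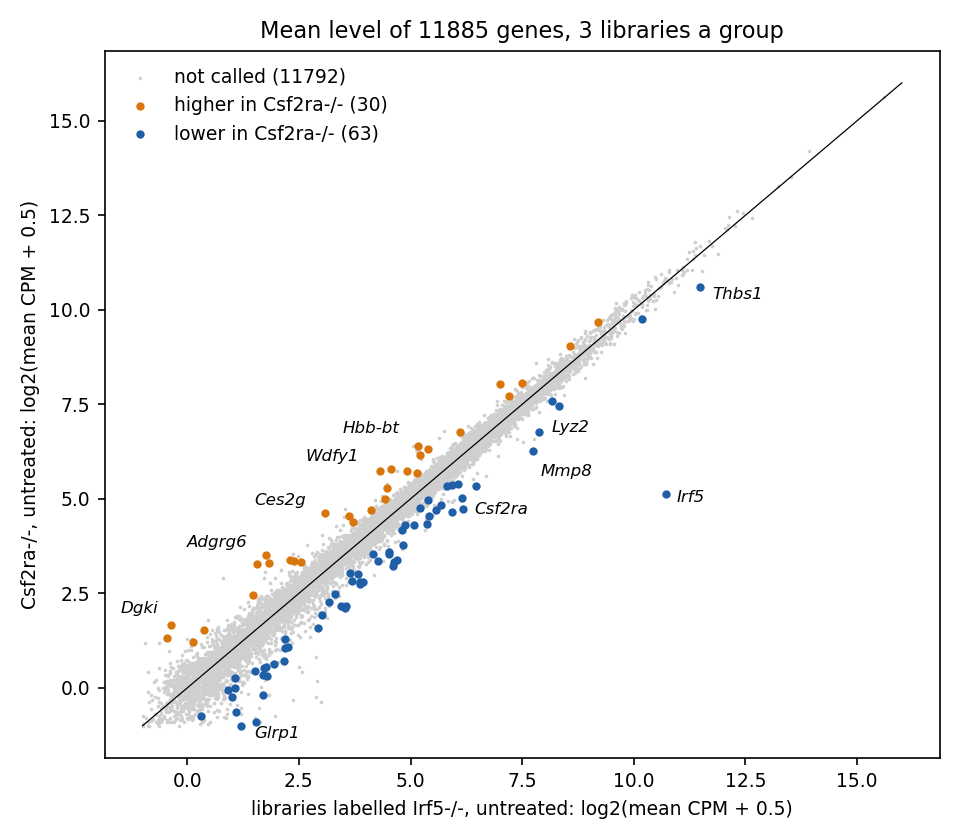
Mean level of each of 11885 genes over 3 untreated libraries, as log2(CPM + 0.5), in the libraries labelled Irf5-/- (horizontal) and in Csf2ra-/- (vertical); the line marks equality. The 30 orange genes were called higher and the 63 blue genes called lower in Csf2ra-/-, and most of the blue genes lie below 300 CPM.

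The WT libraries, which do not enter this contrast, show on which side each difference lay. For 81 of the 93 genes the WT level was nearer the Irf5-labelled level and for 12 nearer the Csf2ra-/- level; over all genes tested the numbers were 7319 and 4564. WT lay between both groups for 42 genes and beyond the Irf5-labelled level for 51, and for none beyond the Csf2ra-/- level. The median size of the log2 difference over the 93 was 1.08 for Csf2ra-/- against WT and 0.24 for the Irf5-labelled libraries against WT, beside 0.22 and 0.17 over all genes tested. WT libraries overlapped the Irf5-labelled libraries alone for 60 genes and the Csf2ra-/- libraries alone for 5, Inpp4a, S100a9, Egr2 and Tcp1 among them. WT lay outside the range of Csf2ra-/- for 83 of the 93, where 2514 of all genes tested (21.2%) did so, and outside that of the Irf5-labelled libraries for 28, where 3093 (26.0%) did so. Tested against WT, Csf2ra-/- had 1288 called genes (10.8%) and the Irf5-labelled libraries 4 (0.0337%), namely Irf5, Rab7b, Plk3 and Bmt2. These comparisons share libraries with the main one and are set side by side only. Both counts are tied to the shared spread estimate. When each knockout group was fitted with the WT libraries alone, 562 genes were called for the Irf5-labelled libraries and 199 for Csf2ra-/-. The order of the counts was then the reverse of that in the fit of all libraries. DESeq2 on all libraries called 23 genes for the Irf5-labelled libraries and 1643 for Csf2ra-/-. Which group lay further from WT by number of calls therefore depends on how the spread was estimated.

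**Figure D3:**
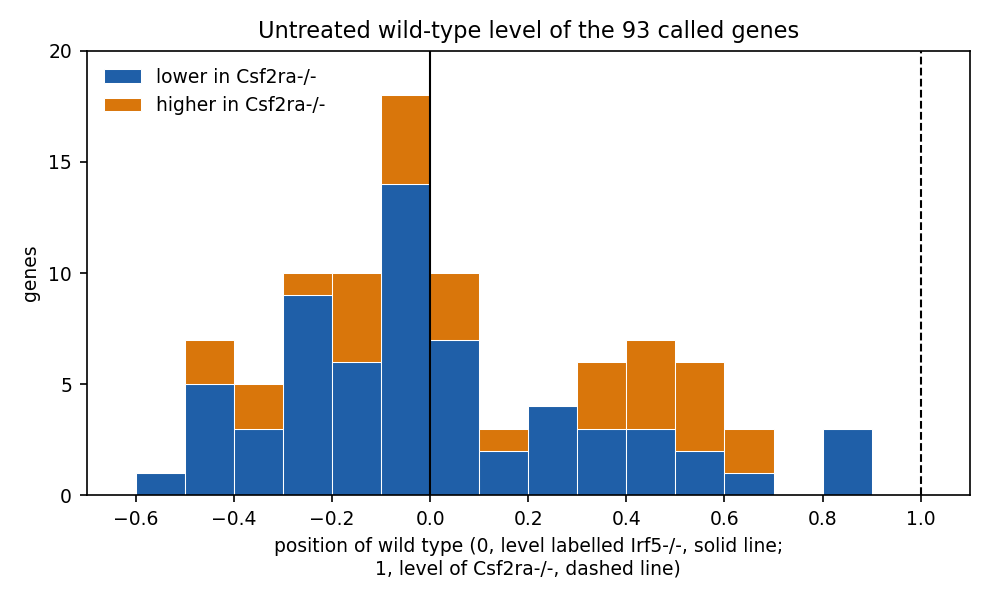
Number of called genes by where the untreated WT level lay on a scale from the level in the libraries labelled Irf5-/- (0, solid line) to the level in Csf2ra-/- (1, dashed line), computed from log2 fold changes. The 93 genes run from -0.54 to 0.88 with a median of -0.02, and none reaches 1; the genes farthest right include Irf5 and Egr2.

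Of 16 tested neutrophil genes, 5 were called, all lower in Csf2ra-/- (Mmp9, Mmp8, S100a9, Csf3r and Ngp), and 11 were not; the list's median was -0.91. Mmp9, the gelatinase of tertiary granules, stood at 10.4, 8.30 and 11.2 CPM in Csf2ra-/- and at 28.2, 21.5 and 26.3 CPM in the Irf5-labelled libraries, and WT (27.1, 20.9 and 23.4 CPM) lay within the range of the latter. Its log2 difference was -1.34 ± 0.16 (edgeR adjusted p = 8.50e-05). Mmp8, the neutrophil collagenase, had 77.7, 82.5 and 68.6 CPM against 264, 165 and 209 CPM, with WT between them at 98.8 to 138 CPM. The difference was -1.48 ± 0.29 (edgeR adjusted p = 0.0150), and the call was lost without Csf2ra-/- replicate 1 or 3 or without Irf5-labelled replicate 1 or 3 (adjusted p up to 0.0684).

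S100a9, a subunit of calprotectin, stood at 228, 137 and 158 CPM in Csf2ra-/- and at 318, 358 and 291 CPM in the Irf5-labelled libraries (-0.89 ± 0.15, edgeR adjusted p = 0.00466). WT, at 200 to 276 CPM, overlapped Csf2ra-/- and stayed below every Irf5-labelled library. Its partner S100a8 had 66.9, 26.3 and 52.1 CPM against 123, 103 and 83.1 CPM and missed the threshold (edgeR adjusted p = 0.0896). Csf3r, the receptor for granulocyte colony-stimulating factor, was lower by -1.15 ± 0.22 (5.06 to 7.57 CPM against 11.9 to 16.6 CPM), and Ngp, a cathelin-like protein of secondary granules, by -0.44 ± 0.10 (799.5 to 937 CPM against 1062 to 1272 CPM). The call of Csf3r was lost without Irf5-labelled replicate 3, and that of Ngp without Csf2ra-/- replicate 3 or Irf5-labelled replicate 2 or 3 (edgeR adjusted p up to 0.0589 and 0.144). Ly6g, Mpo, Cxcr2 and Prtn3, at log2 differences of -0.12, -0.52, 0.18 and 0.31, were also not called. The summed level of 10 defining neutrophil markers was 1254 to 1576 CPM in Csf2ra-/-, 1891 to 2097 CPM in the Irf5-labelled libraries and 1599 to 1827 CPM in WT, all far under the 77220 to 113400 CPM of 12 eosinophil markers. In bulk RNA, fewer cells of a type and less RNA per cell cannot be told apart. Without Irf5-labelled replicate 3, 2 of the 16 neutrophil genes were called, and DESeq2 called 11.

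Markers of other myeloid cells lay mostly below 0 but few were called. Among 18 monocyte and macrophage genes 16 were below 0, the median was -0.97, and Lyz2 alone was called. Against WT the list's median was -1.79 in Csf2ra-/- and -0.55 in the Irf5-labelled libraries, so by the medians both lay below WT. Lyz2, the lysozyme of myeloid cells, had 120, 88.1 and 117 CPM in Csf2ra-/-, 262, 207 and 229 CPM in the Irf5-labelled libraries and 203 to 292 CPM in WT (-1.10 ± 0.18, edgeR adjusted p = 0.00273); its close copy Lyz1 did not pass the filter on low counts, and reads that fit both cannot be assigned with certainty. The summed level of 10 monocyte and macrophage markers was 1456 to 2071 CPM in Csf2ra-/- and 1435 to 1622 CPM in the Irf5-labelled libraries. Most of it was Ly6c2, at 1915, 1467 and 1345 CPM against 1460, 1327 and 1240 CPM, so the sum says little of the other markers. Csf1r, the next most abundant, had 144, 122 and 102 CPM against 149, 165 and 167 CPM. Of 14 dendritic cell and antigen presentation genes (median -0.84), Itgax was the called one. Against WT that list's median was -1.13 in Csf2ra-/- and -0.62 in the Irf5-labelled libraries. These medians were not tested. Itgax, the alpha chain of the CD11c integrin, stood at 25.8, 25.1 and 25.3 CPM in Csf2ra-/- and at 44.0, 44.5 and 51.6 CPM in the Irf5-labelled libraries, with WT at 42.2 to 49.9 CPM (-0.88 ± 0.12, edgeR adjusted p = 0.000242). Mpeg1, the macrophage perforin-2, was lower by -1.08 ± 0.21 (14.1 to 22.8 CPM against 38.6 to 45.2 CPM; edgeR adjusted p = 0.0144). Mpeg1 was named after its values were seen, and its call was lost without Csf2ra-/- replicate 3 or Irf5-labelled replicate 3 (adjusted p up to 0.117).

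Single receptors that bind microbial products were called lower. Clec4d, a C-type lectin that pairs with the Mincle receptor, had 3.82, 3.12 and 4.97 CPM in Csf2ra-/- and 10.1, 9.67 and 11.6 CPM in the Irf5-labelled libraries, and WT was at 11.1 to 12 CPM. Its difference was -1.39 ± 0.20 (edgeR adjusted p = 0.000475), and it was called whichever library was left out. Clec7a (dectin-1, the beta-glucan receptor) was lower by -0.66 ± 0.15 and Clec5a, a DAP12-coupled lectin, by -1.35 ± 0.32; both were named after their values were seen, and they kept their call in 3 and 1 of the 6 leave-one-out fits (edgeR adjusted p up to 0.208). Cd180, a Toll-like receptor homologue that regulates lipopolysaccharide responses, stood at 3.95, 3.89 and 2.01 CPM against 7.36, 6.84 and 8.43 CPM (-1.23 ± 0.26, edgeR adjusted p = 0.0225), and the call was lost without Csf2ra-/- replicate 3 or Irf5-labelled replicate 3 (adjusted p up to 0.152). Of 21 tested genes of Toll-like receptor signalling upstream of IRF5, 1 was called, Tlr7, the endosomal receptor for single-stranded RNA, at 0.25 to 0.59 CPM against 0.96 to 1.75 CPM (-1.54 ± 0.33, edgeR adjusted p = 0.0239). The list's median was -0.24. The call of Tlr7 was kept only without Csf2ra-/- replicate 2 or Irf5-labelled replicate 1 (adjusted p up to 0.123 in the other 4 leave-one-out fits).

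Of 19 tested genes of alternative activation and matrix turnover, 3 were called, all lower (Mmp9, Chil3 and Thbs1), and 16, Arg1, Retnla and Mrc1 among them, were not; the list's median was -0.66. Chil3, the chitinase-like protein Ym1, had 12.5, 7.19 and 6.74 CPM in Csf2ra-/- and 27.0, 21.8 and 23.1 CPM in the Irf5-labelled libraries (-1.49 ± 0.29, edgeR adjusted p = 0.0135); it has near-identical copies, so its count is uncertain. Thbs1, the matrix glycoprotein thrombospondin-1, was abundant, at 1371, 2090 and 1232 CPM against 2909, 2576 and 3056 CPM, with WT at 2586 to 3182 CPM (-0.86 ± 0.16, edgeR adjusted p = 0.00876). Mmp13, collagenase-3, had 27.4, 26.8 and 20.2 CPM against 52.0, 69.6 and 60.7 CPM (-1.30 ± 0.25, edgeR adjusted p = 0.0144). In each of Chil3, Thbs1 and Mmp13 all 3 Csf2ra-/- libraries lay below all Irf5-labelled and all WT libraries. All 3 calls were lost without Irf5-labelled replicate 3, those of Chil3 and Mmp13 also without Csf2ra-/- replicate 3, that of Mmp13 without Irf5-labelled replicate 2, and that of Thbs1 without Csf2ra-/- replicate 1 (edgeR adjusted p up to 0.0644, 0.0700 and 0.0684 for Chil3, Mmp13 and Thbs1). Fam20c, the kinase that phosphorylates secreted proteins, kept its call in every such fit (-1.47 ± 0.24; 2.59, 4.24 and 5.03 CPM against 8.96, 10.7 and 13.9 CPM). The remaining named lower genes were Lrp1, an endocytic receptor (-1.57 ± 0.36), Ppbp, a platelet chemokine (-1.46 ± 0.33), Pgr, the progesterone receptor (-1.33 ± 0.26), and Tpm4, an actin-binding tropomyosin (-1.21 ± 0.28). Each of these 4 lost its call in 3 to 5 of the 6 leave-one-out fits, always including those without replicate 3 of either group (adjusted p up to 0.275). Lrp1 and Tpm4 were also uneven among the Irf5-labelled libraries, with replicate 1 at 4.96 and 9.12 CPM and the others at 12.6 to 15.5 and 13.1 to 20.1 CPM.

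Chemokine genes had a median of -0.995 over 12 tested members, 11 of them below 0, and Cxcl2 was called. Cxcl2, a neutrophil attractant, stood at 9.75, 9.78 and 9.70 CPM in Csf2ra-/- and at 22.1, 17.5 and 16.6 CPM in the Irf5-labelled libraries, with WT between them at 13.1 to 15.7 CPM (-0.93 ± 0.19, edgeR adjusted p = 0.0208). Without Csf2ra-/- replicate 3, Irf5-labelled replicate 1 or Irf5-labelled replicate 3, no chemokine gene was called by edgeR, Cxcl2 itself also lost its call without Csf2ra-/- replicate 1 (adjusted p up to 0.0824 leaving out 1 library), while DESeq2 on all libraries called 6, and 10 of the 12 had an unadjusted p under 0.05 in the fit of all libraries. Of 22 immediate early genes, the called one was Egr2, a zinc finger factor induced by growth signals, at 12.3, 11.4 and 9.52 CPM against 24, 25.2 and 18.2 CPM (-1.02 ± 0.17, edgeR adjusted p = 0.00334). Here WT, at 9.90 to 15 CPM, overlapped Csf2ra-/- and lay below every Irf5-labelled library, so Egr2 stood apart in the libraries labelled Irf5-/- (0.87 above WT on the log2 scale, edgeR adjusted p = 0.0856).

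Genes higher in Csf2ra-/- belonged to varied functions. Wdfy1 (ENSMUSG00000073643, chromosome 1, 79702262 to 79776143), an endosomal adaptor of Toll-like receptor signalling, had the smallest adjusted p among them, at 53.9, 56.3 and 47.2 CPM in Csf2ra-/-, 22.4, 18.5 and 17.8 CPM in the Irf5-labelled libraries and 20.3 to 21.4 CPM in WT (1.44 ± 0.11, edgeR adjusted p = 6.12e-08). Wdfy1 was also the called one of 5 tested genes from a list of 7 reported to differ between C57BL/6 substrains. Ces2g, a carboxylesterase, stood at 20.8, 28.5 and 23.2 CPM against 4.00, 10.3 and 9.67 CPM (1.54 ± 0.24, edgeR adjusted p = 0.00159). B3gnt7, a glycosyltransferase that extends poly-N-acetyllactosamine chains, had 68.3, 75.4 and 94.0 CPM against 39.5, 44.2 and 41.0 CPM (0.93 ± 0.13, edgeR adjusted p = 0.000523). Ap1s3, a subunit of a clathrin adaptor, had 19.9 to 26.2 CPM against 11.4 to 12.4 CPM (0.96 ± 0.16). All 4 were called whichever library was left out, with WT close to the Irf5-labelled level in each.

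C7, a component of the terminal complement complex, was higher by 1.23 ± 0.22 (edgeR adjusted p = 0.00671), with Csf2ra-/- replicate 2 at 85.4 CPM, replicates 1 and 3 at 36.3 and 41.2 CPM, and the Irf5-labelled libraries at 21.6 to 25.6 CPM. The beta-globin gene Hbb-bt stood at 119, 57.7 and 74.8 CPM against 34.6 to 36.3 CPM (1.23 ± 0.22, edgeR adjusted p = 0.00750), and WT was lower still at 18.0 to 27.8 CPM; its count is uncertain because Hbb-bs is a close copy. The other erythroid markers were near the floor, with a summed level of 0.65 to 1.73 CPM for 3 of them in Csf2ra-/- and 0.95 to 1.18 CPM in the Irf5-labelled libraries. Vcam1, the ligand of the VLA-4 integrin, had 334, 281 and 178 CPM against 112, 143 and 128 CPM (1.05 ± 0.22, edgeR adjusted p = 0.0208). The other named genes were Adgrg6, an adhesion G protein-coupled receptor (1.95 ± 0.41), Clec2i, a lectin-like ligand of natural killer cell receptors (1.69 ± 0.30), Tom1l1, an endosomal adaptor (1.15 ± 0.23), and Cdh17, a cadherin (0.97 ± 0.20). These 4 genes, Hbb-bt and Vcam1 lost their call in 2 or 3 of the 6 leave-one-out fits, in all 6 cases among others without Irf5-labelled replicate 3 (adjusted p up to 0.156).

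The receptors of the beta-chain family other than Csf2ra were not called with all libraries in the fit. Csf2rb stood at 2403, 3463 and 2660 CPM in Csf2ra-/- and at 4038, 3383 and 3921 CPM in the Irf5-labelled libraries (-0.41 ± 0.14, edgeR adjusted p = 0.182), and its close copy Csf2rb2, whose reads cannot be cleanly separated from it, gave -0.43 ± 0.15. Il5ra, which carries the IL-5 signal these cells were grown in, had 91.3, 118 and 59.9 CPM against 94.9, 77.8 and 82.9 CPM (0.08 ± 0.24), and Il3ra gave 0.30 ± 0.18. Without Csf2ra-/- replicate 2, 3 of the 5 receptor genes were called lower: Csf2ra, Csf2rb (-0.58 ± 0.13, edgeR adjusted p = 0.0206) and Csf2rb2 (-0.60 ± 0.15, edgeR adjusted p = 0.0284). Over all 12053 genes of that fit, 324 were called lower. Among 9 interferon regulatory factors Irf5 was the called one. Irf4 and Irf8 had the next lowest values, at -0.93 ± 0.41 and -0.69 ± 0.37 (edgeR adjusted p = 0.333 and 0.440), and the other 6 lay between -0.27 and 0.29. No gene of 22 interferon-stimulated genes was called by edgeR, and the median was -0.14. Of the 22, 2 had an unadjusted p under 0.05, beside 1582 of 11885 over all genes tested.

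None of 20 tested eosinophil granule and lineage genes was called by edgeR, and their median was 0.03. Of the 20, 5 had an unadjusted p under 0.05 and 3 had groups that did not overlap. Over all 11885 genes tested these numbers were 1582 and 1381 (11.6%). Alox15, the lipoxygenase of eosinophils, stood at 1921, 2139 and 2238 CPM in Csf2ra-/- and at 2826, 2856 and 3100 CPM in the Irf5-labelled libraries (-0.48 ± 0.12, edgeR adjusted p = 0.0523), and without Csf2ra-/- replicate 2 it was called (adjusted p = 0.0320). Ccr3, the eotaxin receptor, had 182 to 236 CPM against 280 to 338 CPM (-0.47 ± 0.18, edgeR adjusted p = 0.261). Alox15 and Ccr3 were chosen after their values were seen. Prg2 (major basic protein) stood at 65228, 40974 and 45502 CPM in Csf2ra-/- and at 47816, 53221 and 48540 CPM in the Irf5-labelled libraries, and Siglecf at 397, 450 and 294 against 438, 379 and 396 CPM. All 32 cell cycle genes lay above 0 (median 0.31) with none called by edgeR and 16 at an unadjusted p under 0.05; without Csf2ra-/- replicate 2, 2 were called. The oxidative phosphorylation list likewise went from 0 called of 21 (median 0.22) to 6 called higher without that library, and the heat shock and unfolded protein list from 0 of 18 (median 0.28) to 5. Calls rose over all genes in that fit as well, to 334 higher and 324 lower of 12053. The 34 lists overlap in members, and 11 of the 12 with a called member had another count under at least 1 alternative. Stromal genes moved with single libraries: Col1a1 was at 0, 15 and 5.55 CPM in the Irf5-labelled libraries and at 0 to 0.88 CPM in Csf2ra-/-, and Postn, a matrix protein of fibroblasts, had 103 counts against 2, a ratio of 61.3 (95% exact interval 16.5 to 513.0, counting error only) that came from replicates 2 and 3 alone. The part of these cells in other differences was not tested. Of 20 adhesion and migration receptors 2 were called, Itgax and, higher in Csf2ra-/-, Ffar2, a receptor for short-chain fatty acids (185 to 253 CPM against 143 to 151 CPM; 0.50 ± 0.12, edgeR adjusted p = 0.0408 and up to 0.264 leaving out 1 library). Mast cell and basophil genes (11 tested, median -0.08) and lymphocyte genes (5 tested) had no call by edgeR, with 1 and 2 at an unadjusted p under 0.05, and the lymphocyte markers Cd3e and Ncr1 had no count in the 6 libraries.

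**Figure D4:**
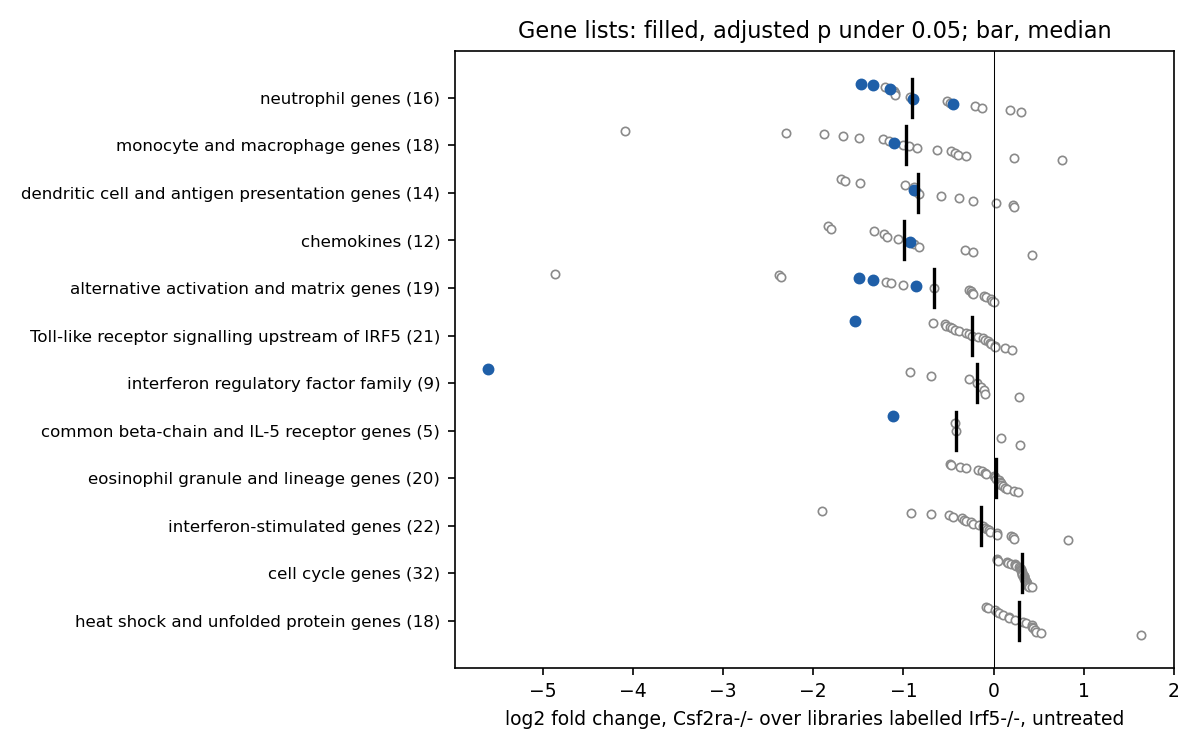
Log2 fold change of each tested gene (points) in 12 lists, Csf2ra-/- over the libraries labelled Irf5-/-, with the number tested in brackets; filled points were called and the bar marks the median. The upper 5 lists have medians between -0.66 and -0.995 with few filled points, and the eosinophil list is centred at 0.03.

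Some called genes lay close together on the genome. Within 20 Mb of Csf2ra on chromosome 19, 3 of 118 tested genes were called (2.54%). They were Csf2ra itself, the zinc finger gene Zfp950 and Rab11fip2, a Rab11 effector of recycling endosomes, all lower. Rab11fip2 kept its call in 1 of the 6 leave-one-out fits (edgeR adjusted p up to 0.156), and Csf2ra and Zfp950 in all 6. The share over all genes tested was 0.782%, and the counts around Csf2ra and Irf5 each include the targeted gene. Zfp950, which lies next to Csf2ra, had 13.8, 14 and 11.8 CPM against 31.7, 27.5 and 24.7 CPM, with WT at 23.7 to 30.1 CPM (-1.08 ± 0.13, edgeR adjusted p = 8.50e-05). Within 20 Mb of Irf5 on chromosome 6, 3 of 123 were called (2.44%): Irf5, Clec5a and Dgki, a diacylglycerol kinase that was higher in Csf2ra-/- (2.96, 2.89 and 2.07 CPM against 0.48, 0.07 and 0.26 CPM; WT 0.91 to 1.29 CPM). The neighbours Tnpo3, Kcp and Atp6v1f of Irf5 and Grk5 and Prdx3 of Csf2ra were not called. On chromosome 1, 9 of 690 tested genes were called (1.3%), beside 1.75% on chromosome 10 and 1.39% on chromosome 6. Of these 9, 8 lay among 153 tested genes between 60.7 and 93.8 Mb (5.23%) and 1 among 537 elsewhere (0.19%). The segment was delimited after the values were seen, from the second to the last called gene of the chromosome. This cut fixed the split into 8 and 1, and no other chromosome was cut in this way. The segment held Cd28, Nrp2, Slc11a1, Glrp1 and D2hgdh, which were lower, and Ap1s3, Wdfy1 and B3gnt7, which were higher. Cd28 and Nrp2 kept their call in only 2 of the 6 leave-one-out fits (edgeR adjusted p up to 0.152 and 0.164).

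Glrp1 (chromosome 1, 88499871 to 88510066) had no count in any Csf2ra-/- library, untreated or with GM-CSF, against 64 counts in the untreated Irf5-labelled and 97 in the untreated WT libraries, at least 25.4-fold lower with the floor set at 3 counts over the group. D2hgdh, a mitochondrial dehydrogenase of D-2-hydroxyglutarate, had 5.80, 7.42 and 6.09 CPM against 15.8, 15.3 and 13.3 CPM, and WT was at 14.5 to 16.7 CPM (-1.18 ± 0.12, edgeR adjusted p = 1.24e-05). Slc11a1, the phagosomal metal transporter NRAMP1, had 0.49 to 0.89 CPM against 2.47 to 3.40 CPM (-1.93 ± 0.32). These 3 genes were called whichever library was left out, and in each the WT libraries overlapped or exceeded the Irf5-labelled ones. They were named after their values were seen.

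The promoters of called genes were read for short motifs. The windows cover 250 bases before the RefSeq start (GRCm38.p6), and 63 windows of 49 of the 63 lower genes and 30 windows of 20 of the 30 higher genes were at hand; some genes have several overlapping windows. GAGGAA, the core bound by PU.1 and other ETS factors, was present on either strand in 39.7% of the windows of lower genes, 16.7% of those of higher genes, 22.6% of 11728 windows of tested genes and 23.3% of all 32851 windows. In the same order, GAAANNGAA, an interferon regulatory factor core, was present in 9.52%, 13.3%, 6.25% and 7.13%. The C/EBP-type TTNCNNAA was in 39.7%, 53.3%, 28.8% and 36.8%. The AP-1 core TGANTCA was in 7.94%, 3.33%, 4.46% and 6.75%, and the NF-kB-type GGNANNNCC in 42.9%, 56.7%, 46.1% and 39.3%. The motifs can overlap one another. Counted once per gene, GAGGAA was in 21 of 49 lower genes (42.9%), 4 of 20 higher genes and 26.1% of 9187 tested genes. The windows of Csf2ra (chr19:61228419-61228668, minus strand), Csf3r (chr4:126024409-126024658, plus strand), Mmp8 (chr9:7558179-7558428, plus strand) and Clec4d (chr6:123261857-123262106, plus strand) are given 5′ to 3′ on the gene's strand as lower genes that hold the ETS core, with GAGGAA or its reverse complement in capitals; that of Csf2ra has 2 copies in a row at its end. The window of Itgax (chr7:128129300-128129549, plus strand) is given as a lower gene without it, and Irf5, Lyz2, S100a9, Mpeg1, Ngp, D2hgdh and Cxcl2 also had no match. A match is a description of the letters and not a bound site, and the number of windows is small.
Csf2ra: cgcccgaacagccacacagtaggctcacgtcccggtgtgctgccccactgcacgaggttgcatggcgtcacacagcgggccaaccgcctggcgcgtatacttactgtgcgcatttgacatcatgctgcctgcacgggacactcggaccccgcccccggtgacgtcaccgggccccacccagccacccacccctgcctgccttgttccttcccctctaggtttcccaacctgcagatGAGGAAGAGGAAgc
Csf3r: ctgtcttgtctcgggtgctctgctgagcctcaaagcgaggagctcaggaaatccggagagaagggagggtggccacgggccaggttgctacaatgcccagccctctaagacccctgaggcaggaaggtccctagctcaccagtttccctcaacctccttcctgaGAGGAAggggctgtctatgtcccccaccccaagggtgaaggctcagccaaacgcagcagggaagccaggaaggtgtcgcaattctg
Mmp8: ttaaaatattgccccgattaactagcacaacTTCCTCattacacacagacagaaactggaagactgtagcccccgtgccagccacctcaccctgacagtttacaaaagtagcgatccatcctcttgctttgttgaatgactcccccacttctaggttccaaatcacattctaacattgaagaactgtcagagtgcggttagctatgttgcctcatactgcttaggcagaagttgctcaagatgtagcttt
Clec4d: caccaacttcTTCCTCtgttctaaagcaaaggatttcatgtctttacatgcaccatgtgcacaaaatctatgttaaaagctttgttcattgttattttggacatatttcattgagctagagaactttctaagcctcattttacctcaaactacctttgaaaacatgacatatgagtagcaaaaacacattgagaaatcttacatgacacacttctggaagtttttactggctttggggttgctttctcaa
Itgax: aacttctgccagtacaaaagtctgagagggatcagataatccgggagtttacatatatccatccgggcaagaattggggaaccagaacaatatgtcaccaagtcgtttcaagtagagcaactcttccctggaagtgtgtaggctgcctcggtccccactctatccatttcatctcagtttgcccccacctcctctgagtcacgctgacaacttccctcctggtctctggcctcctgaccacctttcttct

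The contrast was read again in the 6 libraries kept overnight with GM-CSF. Of the 93 genes, 92 had the same sign there and 60 were called in the same direction, 19 higher and 41 lower. That is 64.5% of the untreated list and 16.6% of the 362 genes called with GM-CSF (3.05%), of which 289 (2.43%) were lower in Csf2ra-/-. The share of all genes tested with the same sign in both contrasts is not given here, so the agreement in sign has no background. The libraries are different ones, but the Irf5-labelled groups had like Y-linked sums by replicate number in both treatments (165.4, 13.43 and 44.24 CPM with GM-CSF), so shared cultures were possible and the second reading may not be independent. Irf5 had 33.0, 33.5 and 34.5 CPM in Csf2ra-/- and 1999, 1584 and 1394 CPM in the Irf5-labelled libraries with GM-CSF (-5.62 ± 0.19). Wdfy1 gave 1.53 ± 0.11, Mmp9 -1.32 ± 0.16, Clec4d -1.51 ± 0.20, Itgax -1.36 ± 0.12 and Fam20c -2.05 ± 0.23, each called by edgeR. Csf2ra gave -0.62 ± 0.14 (edgeR adjusted p = 0.0125). Mmp8, Csf3r, Ppbp, Lrp1, Cd180, Thbs1 and Tlr7 were among the 33 genes called without GM-CSF and not with it; their contrasts were not shown to differ by treatment. Irf4, a factor of dendritic cell and alternative macrophage programmes, was not called untreated and had 2.22, 1.05 and 2.73 CPM against 21.9, 12 and 13 CPM with GM-CSF (-2.95 ± 0.38, edgeR adjusted p = 4.85e-05), while the difference between its contrasts was not called (adjusted p = 0.514). Plet1, a surface protein of epithelial progenitors and some dendritic cells, had no count in Csf2ra-/- with GM-CSF and 62.7, 27.9 and 19 CPM in the Irf5-labelled libraries. The eosinophil-attracting chemokine Ccl24 stood at 0.45 to 0.52 against 5.59 to 18.8 CPM with GM-CSF, and Maob, a monoamine oxidase, was higher in Csf2ra-/- by 1.36 ± 0.26; neither was called untreated.

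**Figure D5:**
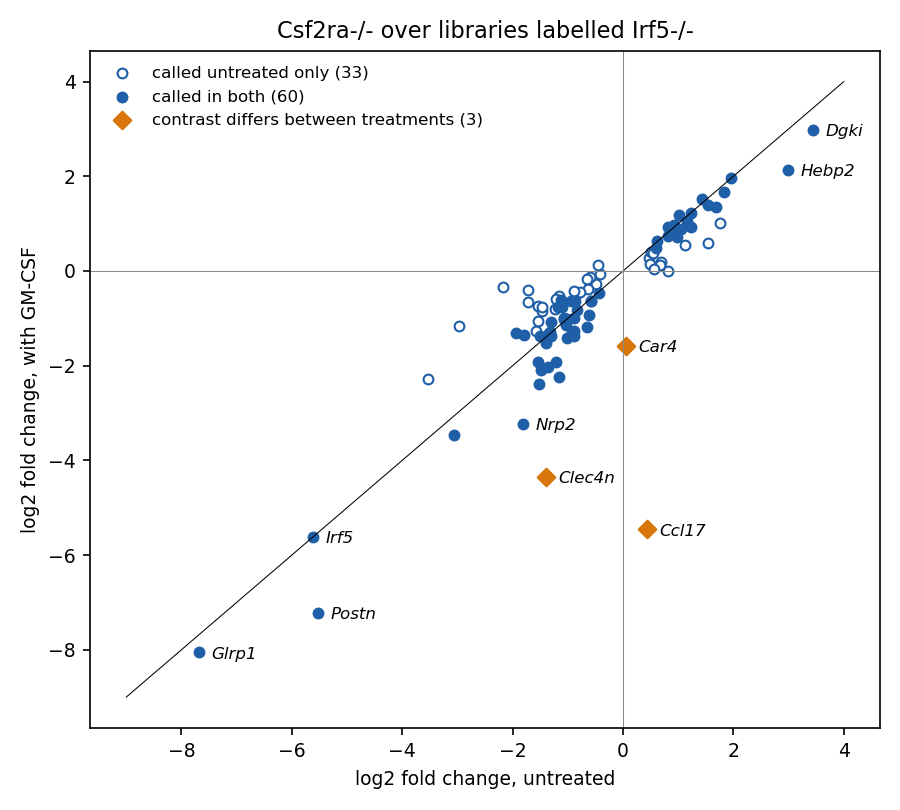
Log2 fold change of Csf2ra-/- over the libraries labelled Irf5-/- without (horizontal) and with GM-CSF (vertical) for the 93 genes called untreated, filled where also called with GM-CSF, and for the 3 genes whose contrast differed between treatments (diamonds). Most points lie near the line of equality and Car4, Clec4n and Ccl17 lie below it; the fitted values of Glrp1 and Postn, which had no count in several libraries, depend on the prior count.

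The contrast itself differed between treatments for 3 genes (0.0252%; 626 at an unadjusted p under 0.05), and in all 3 the Irf5-labelled libraries with GM-CSF were the high ones. Ccl17, a ligand of the chemokine receptor CCR4, stood at 5.67, 2.89 and 3.25 CPM in untreated Csf2ra-/- and 3.04, 2.47 and 2.88 CPM in untreated Irf5-labelled libraries. With GM-CSF it was at 2.86, 2.11 and 3.25 CPM in Csf2ra-/- and 193, 92.3 and 79.4 CPM in the Irf5-labelled libraries. Car4, a membrane-bound carbonic anhydrase, went from 98.2, 78.6 and 103 against 74.1, 102 and 94.5 CPM to 74.2, 75.8 and 92.4 against 220, 254 and 251 CPM. Clec4n, the fungal receptor dectin-2, was at 1.06 to 2.13 against 3.36 to 5.23 CPM untreated and at 0.75 to 2.51 against 28 to 42.6 CPM with GM-CSF. Without GM-CSF none of these 3 genes was called between the genotypes (edgeR adjusted p = 0.772, 0.938 and 0.0885 for Ccl17, Car4 and Clec4n), so they are absent from the baseline differences above. Of the 302 genes called with GM-CSF and not without it, 277 had the same sign in the untreated libraries, again with no share over all genes beside it.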

How the data were processed

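RNA of bone marrow-derived mouse eosinophils was sequenced as stranded polyadenylated libraries, per the labels' protocols. The deposited files hold 1 whole read count for each of 25746 Ensembl genes and library, per the file headers. Per the submitters' processing notes, STAR, featureCounts and the build GRCm38.p6 were used to make them. No source used here states versions, the strand option or how multi-mapping reads were treated, so near-identical and overlapping genes are uncertain. Gene symbols and positions were taken from GENCODE M21; 34 genes had no symbol (0.019% of counts).

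A single fit with 8 group means used all 24 libraries (total counts 6222979 to 18709153) with edgeR 4.0.16 on R 4.3.3 after trimmed-mean scaling, filterByExpr (11885 genes kept) and robust quasi-likelihood dispersion; 5 contrasts were tested, adjusted by Benjamini-Hochberg over all genes. The common biological coefficient of variation was 14.1%. Fold changes are log2 ± SE. Alternatives were DESeq2 1.42.0, limma 3.58.1 (voom), other scalings and filters, a Y-linked covariate and leaving out libraries. The method was also run on simulated counts with the same spread in every group. The wider spread of the untreated Csf2ra-/- libraries was not simulated, so that run cannot vouch for the calls here. The titles' numbers do not pair libraries across groups, so replicates were numbered in order of accession. No replicate pair agreed within sampling noise (chi-square over degrees of freedom at least 5.175).

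Named genes are Csf2ra and Irf5, the 12 largest called changes in each direction with non-overlapping replicates and a mean of at least 5 CPM, up to 4 called members of each list, up to 5 in each direction with GM-CSF, and those said to be named after their values were seen. One gene that the rule names is not reported here. The members and lists were chosen with earlier results of these data known. Transcript GC content and length come from the longest GENCODE transcript of a gene.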

Additional observations from a re-analysis of the deposited data

Results flagged for a closer look

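The difference between Csf2ra-/- and the libraries labelled Irf5-/- changed with GM-CSF for 3 genes by an interaction test in edgeR. The change of the log2 contrast was -5.88 for Ccl17 (adjusted p = 0.000406), -1.62 for Car4 (adjusted p = 0.00423) and -2.94 for Clec4n (adjusted p = 0.0379). In each, all 3 Irf5-labelled libraries with GM-CSF lay above all 3 Csf2ra-/- libraries with GM-CSF. Groups of 3 libraries are too small for a test of single outlying samples.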

How the results depend on the processing

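The count of 93 genes between Csf2ra-/- and the Irf5-labelled libraries was 225 by DESeq2, 60 by limma-voom, 9 from a fit of these 6 libraries alone and 1 with only libraries of a high Y-linked level, which leaves 1 Irf5-labelled library whose spread is assumed to equal that of the other groups; leaving out 1 library gave 25 to 658. Csf2ra-/- against WT (1288) gave 199 with only these groups, 750 with the Y-linked covariate, 347 without the 2 shallowest libraries, 35 with only high Y-linked libraries, and 291 to 2620 leaving out 1 library. The Irf5-labelled libraries against WT (4) gave 9 with no filter, 23 by DESeq2, 562 with only these groups, 2 without the 2 shallowest libraries, 1 with only high Y-linked libraries, and 1 to 8 leaving out 1 library. The contrast with GM-CSF (362) gave 229 with only these groups and 178 to 326 leaving out 1 library. The difference between treatments (3 genes) gave 17 by DESeq2 and 1 by limma-voom. The scalings gave 95 to 99 genes for the main comparison, and upper-quartile scaling split them into 25 higher and 72 lower. Leaving out the 2 shallowest libraries gave 15 higher and 50 lower; the settings by depth and by high Y-linked level were chosen after seeing the data. Of the 93 genes, 1 (Irf5) kept its call under every alternative, 5 under every one but the high Y-linked subset, and 0 reversed where tested (7 genes were not tested under 1 to 3 alternatives). The cause of these changes was not tested. No paired analysis was run, because the labels give no replicate numbers shared between the groups. The difference between treatments was therefore tested unpaired, although the Irf5-labelled groups had like Y-linked sums by replicate number in both treatments. Genes under about 1 CPM rest on few counts in the shallowest library, of 6222979 counts, so a difference there may not be detectable at this depth.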
